A study of Arabidopsis thaliana with 48 samples.

Results

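The 200 genes described here are those whose transcript levels climbed most, week after week, in wild-type Arabidopsis thaliana shoot apices between 3 and 6 weeks of growth in short days. They were chosen by their wild-type values: the mean level of the 3 wild-type libraries had to be higher at each of the later weeks than at the week before and had to reach 5 CPM (counts per 1000000 reads assigned to genes) at 6 weeks. The count table lists 27206 genes, and 1314 of them met this rule. After 6 genes had been set aside, of which 3 met it, the 200 with the largest ratio of the 6-week to the 3-week mean were kept, with 1 CPM added to both means. Since the wild type chose the genes, its values are given as a description with no test, as are all comparisons with it. The tests below compare weeks within each of 3 mutants, and the mutants with each other, none of which entered the choice.

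The libraries were made from total RNA of 15 pooled apices in which meristem tissue was enriched, taken from plants kept at 21 °C with 8 h of light and 16 h of darkness. chr4-2 is an insertion line (SAIL) in CHROMATIN REMODELING 4, a chromatin remodelling ATPase. qem2 is set by the study against the quintuple mutant, the background in which it was isolated, and its labels name no further allele. The quintuple mutant is svp flc ft tsf soc1, named for mutant alleles of a pair of floral repressor genes (SVP and FLC) and of 3 floral promoter genes (FT, TSF and SOC1). The wild type (WT) is Columbia. Each genotype was sampled once a week at ages of 3 to 6 weeks, with 3 libraries from separate biological replicates per genotype and week, and the plants of all groups grew in the same short days. The third qem2 library of 5 weeks held the same count as the third quintuple library of 5 weeks at all 27206 genes, and which genotype those counts come from could not be told. The copy under qem2 was omitted, so that qem2 has 2 libraries at 5 weeks, and the copy under quintuple was kept, so that the identity of the third quintuple library of 5 weeks is uncertain.

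In short days Arabidopsis makes rosette leaves for many weeks before its apex turns to flower production, and in that time the age pathway, gibberellins and the photoperiod pathway act on the same set of floral integrators. The apex also ages as a vegetative organ: leaves change form with the adult phase and the rosette grows denser, so that leaves shade one another and the ratio of red to far-red light falls at the centre. Genes known to act in this period belong to pathways of flowering, light perception, hormones and defence.

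The 47 libraries in use held between 2.91 M and 19.7 M assigned reads, where M stands for 1000000, with a median of 14.2 M. The shallowest was the first qem2 library of 6 weeks, in which 10 reads amount to 3.44 CPM. CHR4 averaged 71.3, 92.2, 112 and 105 CPM in chr4-2 over the 4 ages, against 163, 202, 231 and 224 CPM in WT. SVP averaged 34.7, 58.4, 54.1 and 52.9 CPM in quintuple, against 76.1, 122, 123 and 132 CPM in WT, and FLC 6.88, 10.6, 7.75 and 4.62 CPM in quintuple, against 14.5, 19.6, 10.8 and 3.40 CPM in WT. FLC at 6 weeks and SOC1 at all 4 ages had higher means in the libraries labelled quintuple than in WT, and counts over a whole gene do not check these alleles. Summed levels of 5 apical meristem markers at 6 and at 3 weeks averaged 327 and 156 CPM in chr4-2, 236 and 218 CPM in qem2, 238 and 163 CPM in quintuple, and 261 and 152 CPM in WT, with no marker at 0. Nearly all of it came from STM, KNAT1 and CLV1, while group means of CLV3 and WUS were at most 1.18 and 0.975 CPM. STM and KNAT1 means were higher at 6 than at 3 weeks in every genotype. CLV1 averaged 72.8 and 67.2 CPM in chr4-2, 51.3 and 77.5 CPM in qem2, 56.4 and 68.9 CPM in quintuple, and 77.7 and 69.8 CPM in WT at 6 and at 3 weeks. Summed levels of 5 mesophyll markers at the same weeks were 2517 and 5771 CPM in chr4-2, 2486 and 3740.5 CPM in qem2, 2217 and 4727 CPM in quintuple, and 3088 and 5384 CPM in WT. The 8 vascular markers together had 89.5 and 190 CPM in chr4-2, 78.1 and 268 CPM in qem2, 68.8 and 218 CPM in quintuple, and 73.2 and 187 CPM in WT. These summed marker levels moved with age, and their part in the results below was not tested. In whole apices, fewer cells of a type and less RNA per cell cannot be told apart.

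The 200 genes include 7 of the 10 NF-YA genes, which encode the sequence-specific subunit of the trimeric CCAAT-binding factor NF-Y and most of which are known targets of the microRNA miR169. The microRNAs and their sites are shown because 7 NF-YA genes are among the 200. RefSeq (TAIR10.1) annotates 18 mature miR169 sequences, 8 of them distinct. The seed, bases 2 to 8, is written in capitals: 10 of them share AGCCAAG and 4 share GAGCCAA.
ath-miR169a-5p: cAGCCAAGgaugacuugccga
ath-miR169h: uAGCCAAGgaugacuugccug
ath-miR169d: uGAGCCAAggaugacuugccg

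All 7 NF-YA members carry a site for one of these in the 3′ UTR. The capitals mark the bases that pair with the seed, and the genome positions are those of TAIR10.1, with the strand of the gene.
NF-YA8 chr1:6050422-6050442 minus: aagggaagtcatcCTTGGCTg
NF-YA5 chr1:20217494-20217514 minus: acgggaagtcatcCTTGGCTa
NF-YA3 chr1:27405638-27405658 minus: aggggaagtcatcCTTGGCTa
NF-YA2 chr3:1676806-1676826 minus: aggcaaatcatctTTGGCTCa
NF-YA6 chr3:4644334-4644354 plus: aagggaagtcatcCTTGGCTa
NF-YA9 chr3:7328379-7328399 plus: gcggcaattcattCTTGGCTt
NF-YA10 chr5:1986750-1986770 plus: aggcaaatcatctTTGGCTCa

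NF-YA2 and NF-YA10 share 1 site sequence, matched by miR169d, and the other 5 pair with the a-5p or h form. The number of unpaired bases was 2 for NF-YA6, 4 for NF-YA9 and 3 for the other 5. Here and below a G:U pair is counted as unpaired, so these are counts of bases that differ from a perfect match. Among all 19482 tested genes that could be scanned, 28 had a window with at most 4 unpaired bases. Of the 200 members 8 did, namely the 7 NF-YA genes and MBP1. Of the 3 NF-YA genes outside the list, NF-YA1 had 3 unpaired bases in its 3′ UTR, while the best windows of NF-YA7 and NF-YA4 lay in coding sequence and left 6 and 8 bases unpaired. A match of this kind describes the sequence and is not evidence of cleavage.

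In WT the 200 genes had a median level of 28.4 CPM at 6 weeks and of 8.39 CPM at 3 weeks. The 6-week levels spanned 5.01 CPM to the 7137 CPM of BGLU18, and 43 genes reached 100 CPM, while 9 were under 1 CPM at 3 weeks. The log2 ratio that ranked them, 6 over 3 weeks with 1 CPM added, lay between 0.99 and 5.54 with a median of 1.45. Without the added 1 CPM, the median ratio of the 6-week to the 3-week mean was 2.95-fold. In all but 2 of the 200 every 6-week WT library was above every 3-week WT library. The last genes inside the cut were MCC1, AT2G01210 and TIL at 0.986, 0.985 and 0.985, and the first outside it were HSFB4, ERS2 and UGT71B1 at 0.981, 0.977 and 0.971. All 200 are protein-coding and all passed the filter on low counts. They are spread over the genome, with 48, 35, 37, 34 and 46 on chromosomes 1 to 5, and 5 pairs are direct neighbours. Whether reads were counted by strand is not given in the sources used here, so that reads of the 48 members that overlap a gene on the opposite strand, among them LYK2, PIL2, SPL8 and THI2.1, cannot be told apart from those of their partner.

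Most of the 200 genes also climbed in all 3 mutants. Between 3 and 6 weeks 195 of them rose in chr4-2, where 22.9% of all 19566 tested genes were called higher and 23.1% lower (edgeR's quasi-likelihood test, Benjamini-Hochberg adjusted p under 0.05). In qem2 170 rose, beside 18% of all tested genes, and 2 fell, beside 17.5%. In quintuple 180 rose, beside 20.5% of all tested genes, and 21% of all tested genes fell. No member was called lower in chr4-2 or quintuple by edgeR or DESeq2, and at an unadjusted p under 0.05 none was lower in chr4-2 and 1 in quintuple, beside 26.1% and 24.7% of all tested genes. The median log2 change of the 200 was 1.45 in chr4-2, 1.12 in qem2 and 1.31 in quintuple, against 0.00, 0.01 and 0.00 over all tested genes. In all 3 mutants 164 rose, or 82% of the 200, compared with 11.1% of all tested genes, and 2 rose in none.

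Group means also show the course over the weeks. In chr4-2 those of 158 members were higher at every later week than at the week before, in qem2 those of 77 and in quintuple those of 120, or 79%, 38.5% and 60% of the 200, where 15.5%, 6.18% and 8.04% of all tested genes did so. The step from 3 to 4 weeks was the largest, with a median log2 change of 0.83 in chr4-2, 0.85 in qem2, 0.96 in quintuple and 0.84 in WT. From 5 to 6 weeks the median change was 0.18 in chr4-2, 0.03 in qem2, 0.14 in quintuple and 0.21 in WT. The mean at 6 weeks lay below that at 4 weeks for 5 members in chr4-2, 59 in qem2 and 40 in quintuple. These counts of means describe the order of weeks and carry no test.

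The median member showed the same course in single libraries. On the log2 scale, with 1 CPM added and relative to the WT mean of 3 weeks, the median over the 200 genes at 3 weeks was 0.077, 0.029 and 0.073 in chr4-2, 0.33, 0.37 and 0.34 in qem2, 0.051, 0.12 and 0.057 in quintuple, and -0.017, 0.0042 and 0.00 in WT. The 3 qem2 libraries thus stood above all others at the first time point. At 6 weeks the same median was 1.69, 1.41 and 1.53 in chr4-2, 1.40, 1.39 and 1.33 in qem2, 1.38, 1.35 and 1.40 in quintuple, and 1.48, 1.44 and 1.35 in WT, and the genotypes overlapped. All 3 qem2 libraries were above all 3 WT libraries for 103 members at 3 weeks, or 51.5%, where 23.2% of all tested genes were. For chr4-2 at 3 weeks the share was 19%, beside 6.64%, and for quintuple 23.5%, beside 10.5%. At 6 weeks all qem2 libraries were above all WT libraries for 46 members, or 23%, beside 16.4% of all tested genes. They were below all WT libraries for 53 members, or 26.5%, beside 11.7% of all tested genes. At 6 weeks 7% of members lay below WT in chr4-2, beside 6.19%, and 27.5% in quintuple, beside 9.94%. The choice by WT favours low WT values at 3 weeks and high ones at 6 weeks. These shares therefore do not measure an effect of any mutation.

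**Figure D1:**
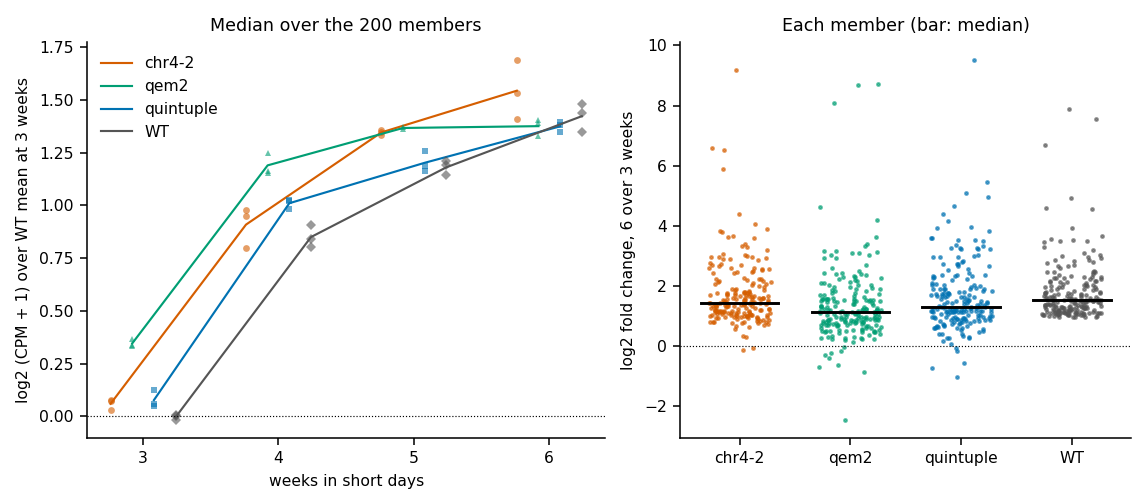
Left, the median over the 200 genes of the log2 level relative to the WT mean at 3 weeks (1 CPM added), 1 point per library, with lines through the group means, by week. Right, each gene's log2 fold change of 6 over 3 weeks in chr4-2, qem2, quintuple and WT, with the median as a bar: the medians are 1.45 in chr4-2, 1.12 in qem2 and 1.31 in quintuple, and the qem2 points at 3 weeks lie above those of the other genotypes.

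Of the NF-YA family, 9 of the 10 genes rose between 3 and 6 weeks in chr4-2, 7 in qem2 and 8 in quintuple, and none was called lower (median log2 change 0.89, 0.76 and 1.26). The families were picked after the members were known, and 7 of the 10 were chosen for their WT values. Of the partner subunits, 8 NF-YB genes were tested and 4 of them rose in chr4-2, none in qem2 and 2 in quintuple, and of 9 tested NF-YC genes 1, 2 and 2 rose. None of these partners is among the 200.

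NF-YA2 (chr3:1676504-1679061, minus strand) had the largest WT increase of the family. At 6 weeks its libraries had 45.7, 69.6 and 51.5 CPM in chr4-2, 44.7, 71.3 and 40.8 CPM in qem2, 108, 33.4 and 117 CPM in quintuple and 88.2, 65.1 and 60.4 CPM in WT. At 3 weeks they had 8.41, 7.63 and 7.19 CPM in chr4-2, 9.51, 10.5 and 11.7 CPM in qem2, 7.85, 7.46 and 11.2 CPM in quintuple and 9.94, 8.16 and 8.54 CPM in WT. In each genotype every 6-week library was above every 3-week library, and the second quintuple library of 6 weeks was the lowest of its group by a wide margin. The log2 change was 2.72 (SE 0.35, adjusted p = 1.82e-07) in chr4-2, 2.29 (SE 0.34, adjusted p = 3.71e-06) in qem2 and 3.24 (SE 0.34, adjusted p = 7.17e-09) in quintuple by edgeR. The increase came late: the means at 4 weeks were still 11.2 CPM in chr4-2, 12.6 CPM in qem2, 11.4 CPM in quintuple and 11.7 CPM in WT.

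NF-YA10, which shares its miR169 site with NF-YA2, had 6.18, 13.1 and 9.65 CPM in chr4-2, 18.9, 24.6 and 14.4 CPM in qem2, 34.6, 9.80 and 37.5 CPM in quintuple and 12.4, 6.45 and 7.37 CPM in WT at 6 weeks. The 3-week libraries had 1.18, 1.86 and 2.59 CPM in chr4-2, 3.91, 4.27 and 4.50 CPM in qem2, 1.16, 4.21 and 3.175 CPM in quintuple and 0.704, 1.45 and 1.43 CPM in WT. Its log2 change was 2.15 (adjusted p = 0.000127) in chr4-2, 2.16 (adjusted p = 7.93e-05) in qem2 and 3.23 (adjusted p = 1.48e-07) in quintuple. The second quintuple library was again low at 6 weeks, and WT at 6 weeks lay below all qem2 libraries.

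The other 5 members of the family had smaller estimates. NF-YA5 rose by 1.77, 1.21 and 2.24 (log2) in chr4-2, qem2 and quintuple, NF-YA3 by 1.35, 1.02 and 1.76, and NF-YA9 by 0.81, 0.85 and 1.145. NF-YA6 rose by 0.93 in chr4-2, 0.68 in qem2 and 0.98 in quintuple, and its qem2 call (adjusted p = 0.0166) was lost without the second 3-week library (0.066) or the second 6-week library (0.083). NF-YA8 rose by 0.86 in chr4-2 and 1.38 in quintuple, and had a log2 change of 0.47 (adjusted p = 0.0581) in qem2, where it was called with those groups alone (0.0362). At 6 weeks NF-YA8 had 12.7, 14.5 and 11.2 CPM in qem2, below the 21.2, 15.0 and 26.3 CPM in quintuple (log2 difference -0.70, SE 0.19, adjusted p = 0.0305). That call was lost when the first or the third qem2 library (0.0804 and 0.239) or the first or the third quintuple library (0.0783 and 0.218) was left out, and with the compared libraries alone (0.207).

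**Figure D2:**
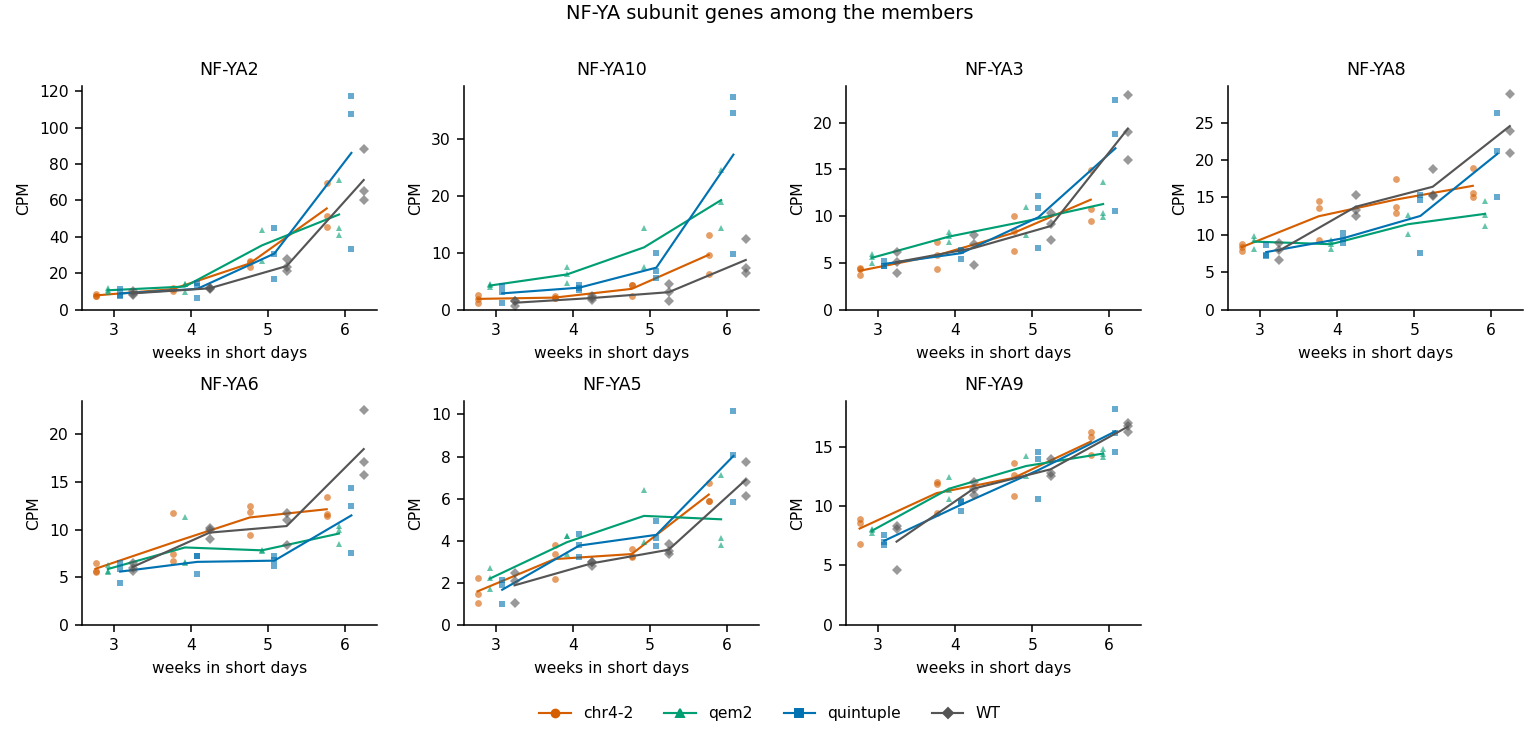
CPM of the 7 NF-YA members in each library (points) by week in chr4-2, qem2, quintuple and WT, with lines through the group means and a separate vertical scale for each gene. NF-YA2 and NF-YA10 stay low until 4 weeks and are highest at 6 weeks, with 1 quintuple library of 6 weeks far below the other 2.

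Other genes with a place in the light and shade response were also among the 200. Of 36 tested genes of light signalling and shade, 13 rose and 6 fell in chr4-2, 7 rose and 3 fell in qem2, and 9 rose and 9 fell in quintuple (median log2 change 0.21, 0.12 and -0.06), and 6 of the 36 are members.

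HFR1, an atypical bHLH protein that restrains shade elongation by binding phytochrome-interacting factors, was nearly absent at 3 weeks. It had 13.5, 9.47 and 8.03 CPM in chr4-2, 13.7, 10.5 and 9.59 CPM in qem2, 8.89, 6.14 and 9.17 CPM in quintuple and 14.2, 9.59 and 11.0 CPM in WT at 6 weeks. The 3-week libraries had 0.263, 0 and 0.259 CPM in chr4-2, 0.559, 0.413 and 0.327 CPM in qem2, 0.152, 0.345 and 0.257 CPM in quintuple and 0, 0 and 0.130 CPM in WT. No 3-week library reached 1 CPM and no 6-week library was below 6 CPM, in any genotype. HFR1 rose by 5.88 (SE 0.60, adjusted p = 9.24e-10) on the log2 scale in chr4-2, 4.61 (SE 0.52, adjusted p = 1.81e-08) in qem2 and 4.95 (SE 0.55, adjusted p = 8.27e-09) in quintuple.

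PIL2, a bHLH protein related to the phytochrome-interacting factors, had 93.4, 59.8 and 99.01 CPM in chr4-2, 69.1, 80.5 and 71.1 CPM in qem2, 36.9, 41.9 and 46.5 CPM in quintuple and 51.9, 52.4 and 53.7 CPM in WT at 6 weeks. The libraries of 3 weeks had 4.73, 6.73 and 4.91 CPM in chr4-2, 9.59, 11.2 and 4.58 CPM in qem2, 4.96, 4.14 and 2.32 CPM in quintuple and 3.168, 3.90 and 3.06 CPM in WT. All genotypes separated the weeks without overlap, with log2 changes of 3.80 (SE 0.33, adjusted p = 1.16e-10) in chr4-2, 3.09 (SE 0.32, adjusted p = 7.58e-09) in qem2 and 3.35 (SE 0.34, adjusted p = 2.46e-09) in quintuple. Between the mutants, PIL2 in qem2 exceeded PIL2 in quintuple at 4 weeks, with 41.1, 30.0 and 38.5 CPM against 18.0, 9.23 and 15.0 CPM (log2 difference 1.34, SE 0.30, adjusted p = 0.0111). At 5 weeks qem2 had 56.1 and 46.5 CPM and quintuple 25.2, 16.9 and 18.4 CPM (log2 difference 1.32, SE 0.32, adjusted p = 0.0197). The 4-week call was lost with those libraries fitted alone (0.179) or without the second quintuple library (0.137), and the 5-week call without the first or second qem2 library (0.301 and 0.0785) or the second or the third quintuple library (0.13 and 0.0918). At 6 weeks the log2 difference was 0.82 (adjusted p = 0.125).

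PIL1, a bHLH gene induced within minutes of shade, rose in 2 of the 3 mutants. It had 52.9, 22.3 and 18.7 CPM in chr4-2, 18.9, 11.8 and 13.1 CPM in qem2, 7.14, 15.9 and 10.0 CPM in quintuple and 40.3, 25.9 and 37.0 CPM in WT at 6 weeks, and at 3 weeks 3.81, 3.92 and 2.90 CPM in chr4-2, 9.35, 9.84 and 2.87 CPM in qem2, 6.28, 5.04 and 1.72 CPM in quintuple and 4.14, 3.173 and 3.13 CPM in WT. In every genotype all 6-week libraries were above the 3-week ones, and at 6 weeks those of qem2 and quintuple were below every WT library. PIL1 rose by 3.05 (adjusted p = 1.14e-05) in chr4-2 and by 1.23 (adjusted p = 0.0429) in quintuple, and its log2 change in qem2 was 0.89 (adjusted p = 0.156). The quintuple call was lost without the second or the third 3-week library (0.0718 and 0.184), without the second or the third 6-week library (0.224 and 0.058), with the groups fitted alone (0.0841) and with no count filter (0.0561). The difference between the chr4-2 and the quintuple change was 1.81 (adjusted p = 0.358), and that between qem2 and quintuple -0.34 (adjusted p = 0.954).

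HB-2 (ATHB2), the classic shade-induced homeodomain-leucine zipper gene, had 68.8, 34.7 and 30.8 CPM in chr4-2, 85.5, 55.5 and 56.0 CPM in qem2, 26.3, 45.6 and 26.0 CPM in quintuple and 43.3, 32.4 and 34.6 CPM in WT at 6 weeks. The 3-week libraries held 14.6, 11.9 and 8.33 CPM in chr4-2, 44.9, 43.3 and 12.4 CPM in qem2, 37.4, 32.1 and 6.78 CPM in quintuple and 8.71, 9.16 and 6.98 CPM in WT. In qem2 and quintuple the first and second 3-week libraries were already high and the third was far lower. HB-2 rose in chr4-2 by 1.86 (SE 0.54, adjusted p = 0.00567), a call lost without the first 6-week library (0.0559), and its log2 change was 0.91 (adjusted p = 0.166) in qem2 and 0.28 (adjusted p = 0.685) in quintuple. At 4 weeks it had 29.7, 42.1 and 37.2 CPM in chr4-2, 61.0, 79.0 and 68.2 CPM in qem2, 59.5, 66.4 and 70.4 CPM in quintuple and 16.9, 30.3 and 14.0 CPM in WT, so that all 6 libraries of qem2 and quintuple were above all WT libraries.

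The related HB4 rose in all 3 mutants, by 1.43 in chr4-2, 0.69 in qem2 and 1.18 in quintuple (log2). PAR1, a small HLH protein that opposes shade elongation, rose by 1.73, 1.57 and 0.90 in the same order, and its quintuple call (adjusted p = 0.00687) was lost without the third 3-week library (0.0543). PHYB, the main red and far-red photoreceptor of the adult plant, averaged 227 ± 48.0 CPM in chr4-2, 223 ± 40.1 CPM in qem2, 206 ± 8.06 CPM in quintuple and 218 ± 18.8 CPM in WT at 6 weeks (SD, n = 3). At 3 weeks PHYB had 105 ± 11.1 CPM in chr4-2, 118 ± 8.11 CPM in qem2, 101 ± 4.08 CPM in quintuple and 102 ± 7.35 CPM in WT. It rose by 0.97 (SE 0.13, adjusted p = 3.92e-07) in chr4-2, 0.88 (SE 0.13, adjusted p = 3.95e-06) in qem2 and 0.97 (SE 0.13, adjusted p = 4.47e-07) in quintuple. CIB5, a bHLH protein of the cryptochrome-interacting group that is not in the list and was chosen after its values were seen, rose by 1.42, 1.72 and 1.42.

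**Figure D3:**
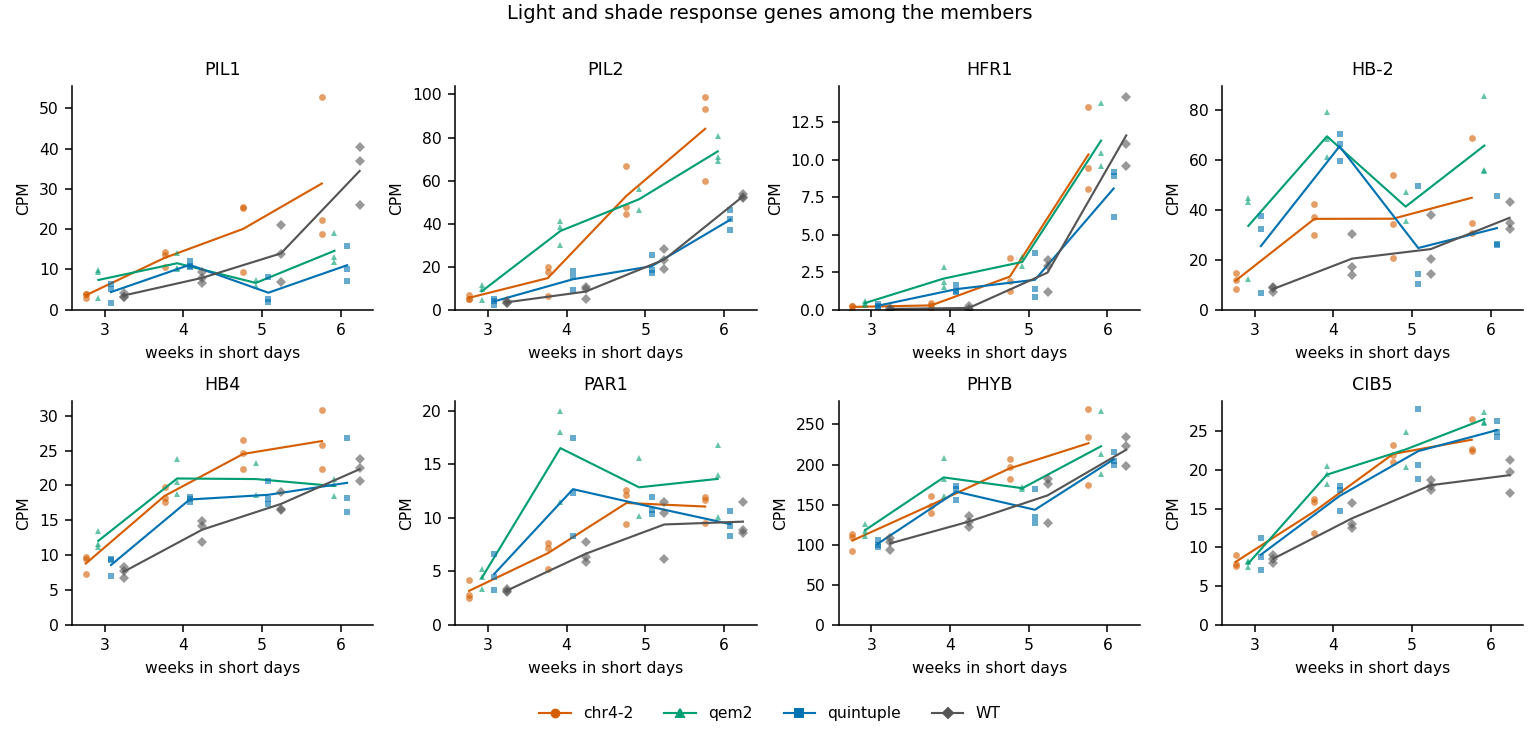
CPM per library (points) by week for 8 members with a role in light and shade signalling, PIL1, PIL2, HFR1, HB-2, HB4, PAR1, PHYB and CIB5, in chr4-2, qem2, quintuple and WT, with lines through the group means. HFR1 is under 1 CPM in all libraries of 3 weeks, and PIL1 at 6 weeks is 18.7 CPM or more in all chr4-2 and WT libraries and in the first qem2 library.

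The G-box, the core site of bHLH and bZIP factors of light signalling, was looked for in the 250 bases before each gene's annotated start (letters CACGTG, the same on both strands). It was found in 16 of the 200 promoters, or 8%, and in 7.46% of the 19481 tested genes with a promoter of that length. PHYB, NF-YA9, GOX3 and AT5G05480 have a pair of G-boxes. Of these, PHYB and NF-YA9 are shown, since they belong to the groups described above, with the G-boxes in capitals and positions from TAIR10.1.
PHYB chr2:8139506-8139755 plus: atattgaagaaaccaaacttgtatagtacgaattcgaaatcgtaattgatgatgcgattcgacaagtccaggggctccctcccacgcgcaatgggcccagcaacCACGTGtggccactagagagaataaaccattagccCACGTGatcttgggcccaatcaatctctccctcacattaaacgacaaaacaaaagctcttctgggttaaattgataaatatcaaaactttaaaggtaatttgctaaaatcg
NF-YA9 chr3:7326105-7326354 plus: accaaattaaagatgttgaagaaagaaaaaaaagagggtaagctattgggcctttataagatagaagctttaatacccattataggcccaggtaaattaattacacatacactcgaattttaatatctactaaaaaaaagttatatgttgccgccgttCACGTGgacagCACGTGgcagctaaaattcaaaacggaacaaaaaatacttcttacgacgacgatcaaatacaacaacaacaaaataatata

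Both promoters belong to genes that rose in all 3 mutants. Of the other 13 motifs, GTAC, the core of the site of SPL proteins of the age pathway and its own reverse complement, was in 46.5% of the members' promoters and in 34.6% of those of the tested genes. Its longer form CGTAC (searched on both strands, always overlapping GTAC) was in 15% and 10.6%. ACGT, which lies within the G-box, was in 56% and 44.1%. The remaining shares, on both strands, were 45% and 44.6% for the W-box TTGAC, 2% and 2.52% for the evening element AAAATATCT, 10.5% and 8.38% for GGNCCC, 8% and 10.6% for TGTCTC, and 3% and 1.91% for GCCGCC. They were 61.5% and 71.7% for AACNG, 10% and 12.8% for CCGAC, 14% and 14.1% for TATCCA, 1.5% and 2.05% for AAACCCTAA, and 4.5% and 2.68% for the CArG box, the site of MADS-domain proteins. These shares are descriptions of letters in a window.

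The floral promoters and the age pathway supplied 2 members, FD and SOC1. Of the 19 tested genes of that list 16 rose in chr4-2, 17 in qem2 and 18 in quintuple, none was called lower, and the median log2 change was 1.79, 1.71 and 2.01. FD, the bZIP protein that FT binds at the apex, had 57.9, 59.6 and 50.0 CPM in chr4-2, 90.0, 101 and 76.9 CPM in qem2, 111, 105 and 92.5 CPM in quintuple and 32.7, 34.0 and 32.5 CPM in WT at 6 weeks and 13.8, 13.6 and 16.6 CPM in chr4-2, 25.8, 31.2 and 28.2 CPM in qem2, 19.1, 16.4 and 14.3 CPM in quintuple and 8.18, 6.25 and 10.4 CPM in WT at 3 weeks. The mutants exceeded WT at both ages without overlap. FD rose by 1.79 in chr4-2, 1.62 in qem2 and 2.57 in quintuple (log2). SOC1 (AGL20 in the annotation), a MADS-domain integrator, averaged 11.9 ± 0.876 CPM in chr4-2, 11.7 ± 0.781 CPM in qem2, 10.4 ± 0.770 CPM in quintuple and 6.57 ± 1.33 CPM in WT at 6 weeks and 2.85 ± 1.03 CPM in chr4-2, 6.76 ± 1.52 CPM in qem2, 5.09 ± 0.570 CPM in quintuple and 1.57 ± 0.389 CPM in WT at 3 weeks (SD, n = 3). It rose by 1.89 (adjusted p = 1.95e-07) in chr4-2, 0.78 (adjusted p = 0.0102) in qem2 and 0.98 (adjusted p = 0.00113) in quintuple, and the qem2 call was lost without the third library of 3 weeks (0.0625) or of 6 weeks (0.0516). SOC1 is 1 of the loci for which the quintuple mutant, the background of qem2, is named. Counts over the whole gene do not check that allele, so these rises do not show that intact SOC1 transcript rose there.

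Some members with roles in reproductive development rose as well. The tested genes of the list for stamen, carpel and ovule went both ways in each mutant, with the counts given below. SPL8, an SBP-box protein known for its role in anther and ovule development, had 40.7, 27.2 and 42.0 CPM in chr4-2, 72.8, 90.0 and 77.7 CPM in qem2, 100.4, 79.0 and 76.1 CPM in quintuple and 29.6, 32.9 and 24.0 CPM in WT at 6 weeks. It had 8.93, 7.69 and 7.40 CPM in chr4-2, 13.9, 14.8 and 16.6 CPM in qem2, 11.0, 10.9 and 15.6 CPM in quintuple and 7.92, 5.71 and 7.63 CPM in WT at 3 weeks. The qem2 and quintuple libraries of 6 weeks lay at more than 70 CPM and all WT and chr4-2 libraries under 45 CPM. SPL8 rose by 2.09 (SE 0.19, adjusted p = 1.45e-10) in chr4-2, 2.39 (SE 0.19, adjusted p = 5.95e-12) in qem2 and 2.72 (SE 0.19, adjusted p = 1.85e-13) in quintuple. REM1, a B3-domain protein named for its expression in reproductive meristems, had 33.4, 29.9 and 28.5 CPM in chr4-2, 33.7, 26.4 and 27.4 CPM in qem2, 29.1, 32.7 and 32.7 CPM in quintuple and 23.3, 23.4 and 22.1 CPM in WT at 6 weeks and 3.28, 3.02 and 2.02 CPM in chr4-2, 6.87, 9.08 and 7.37 CPM in qem2, 4.66, 4.42 and 3.95 CPM in quintuple and 1.14, 2.99 and 1.83 CPM in WT at 3 weeks, with no overlap between the ages. It rose by 3.38, 1.85 and 2.79 (log2) in chr4-2, qem2 and quintuple. FTM1, an acyl-ACP desaturase gene named for the floral transition at the meristem, had 567, 342 and 184 CPM in chr4-2, 179, 116 and 170.1 CPM in qem2, 216, 217 and 200.8 CPM in quintuple and 653, 614 and 536 CPM in WT at 6 weeks and 52.7, 11.8 and 18.7 CPM in chr4-2, 43.9, 27.6 and 27.0 CPM in qem2, 23.7, 19.9 and 16.3 CPM in quintuple and 71.7, 39.7 and 37.2 CPM in WT at 3 weeks. Its 6-week level in WT was above that of all mutant libraries but the first of chr4-2, and it rose by 3.61 (adjusted p = 2.45e-06), 2.21 (adjusted p = 0.00105) and 3.34 (adjusted p = 7.97e-06) in chr4-2, qem2 and quintuple. Summed levels of 5 flower markers were under 1 CPM in every library outside quintuple at 6 weeks. In quintuple at 6 weeks they ranged from 0.0778 to 5.86 CPM. Its means were 1.98 CPM for AP1, 0.806 CPM for AP3 and 0.623 CPM for PI, which each averaged 0 CPM in WT at that age. The part of this signal in the other quintuple values of 6 weeks was not tested.

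The growth-regulating factors (GRF), transcription factors of cell proliferation in leaves, supplied 2 members. Of 9 tested genes of the family 7 rose in chr4-2, 7 in qem2 and 8 in quintuple. The members are GRF8 and GRF3, chosen for mention after their values were seen. GRF8 rose by 3.31, 2.36 and 2.82 (log2) and GRF3 by 0.78, 0.70 and 0.67 in chr4-2, qem2 and quintuple. The IQD family of calmodulin-binding scaffold proteins also has 4 members, but 31 tested genes of the family went both ways, with 11 higher and 6 lower in chr4-2, 11 and 5 in qem2, and 12 and 5 in quintuple. AIL5, an AP2-type gene of the meristem list, rose by 0.71, 0.52 and 0.75.

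The steepest WT increase among genes that were nearly silent at 3 weeks belonged to THI2.1, AT5G44260 and AT3G16670, besides HFR1. AT5G44260, a CCCH zinc finger gene, had at most 0.414 CPM in any library of 3 weeks. At 6 weeks it had 22.8, 6.72 and 12.0 CPM in chr4-2, 17.9, 17.9 and 14.0 CPM in qem2, 17.58, 10.0 and 15.0 CPM in quintuple and 13.4, 18.7 and 12.8 CPM in WT. It had 0.997, 0.354 and 2.352 CPM in chr4-2, 11.4, 5.82 and 15.0 CPM in qem2, 12.3, 4.12 and 10.13 CPM in quintuple and 2.04, 0.249 and 1.92 CPM in WT at 4 weeks, so that qem2 and quintuple were above all chr4-2 and WT libraries at that age. The rise was called in chr4-2, qem2 and quintuple (edgeR adjusted p = 2.23e-08, 1.34e-08 and 5.15e-08), and with 2 reads in all at 3 weeks in qem2 and in WT its fold change is not given. AT3G16670, of the pollen Ole e 1 allergen and extensin family, had 42.9, 6.11 and 7.25 CPM in chr4-2, 46.7, 34.3 and 31.4 CPM in qem2, 18.9, 20.1 and 13.5 CPM in quintuple and 7.85, 22.3 and 27.5 CPM in WT at 6 weeks and was called higher than at 3 weeks in all 3 mutants (adjusted p = 0.000248, 5e-05 and 0.000831). CYP706A3, a cytochrome P450 known for terpene oxidation in flowers, had 63.3, 94.2 and 63.9 CPM in chr4-2, 91.7, 109 and 102 CPM in qem2, 181, 116 and 141 CPM in quintuple and 35.7, 40.4 and 46.2 CPM in WT at 6 weeks and 5.39, 4.61 and 6.00 CPM in chr4-2, 14.8, 16.9 and 17.2 CPM in qem2, 12.3, 12.4 and 11.4 CPM in quintuple and 3.34, 3.81 and 3.72 CPM in WT at 3 weeks. Its ages did not overlap in any genotype, the mutants were above WT at both ages, and it rose by 3.66 (SE 0.19, adjusted p = 9.16e-17) in chr4-2, 2.61 (SE 0.17, adjusted p = 2.13e-13) in qem2 and 3.54 (SE 0.18, adjusted p = 2.52e-17) in quintuple.

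Genes of jasmonate response and herbivore defence included the highest level and the widest spread. Of 22 tested genes of jasmonate and wounding, 7 rose and 1 fell in chr4-2, 11 rose and 1 fell in qem2, and 15 rose and 1 fell in quintuple (median log2 change 1.56, 2.41 and 3.03), and 3 of them are members. BGLU18, a beta-glucosidase of endoplasmic reticulum bodies, held between 13.5 and 42.6% of the summed CPM of the 200 genes at 6 weeks. Its libraries had 11308, 3033 and 3884 CPM in chr4-2, 10634, 10402 and 14114 CPM in qem2, 13119, 16657 and 8331 CPM in quintuple and 4537, 3217 and 13657 CPM in WT at 6 weeks and 1678, 1337 and 1653 CPM in chr4-2, 2239, 2001 and 2134 CPM in qem2, 1688, 2027 and 1777 CPM in quintuple and 2992, 1382 and 1763 CPM in WT at 3 weeks. In WT the third library and in chr4-2 the first stood far above the others of their group at 6 weeks. The WT libraries of 5 weeks had 4829, 8558 and 3875 CPM, so the WT rise from 5 to 6 weeks rested on the third 6-week library. BGLU18 rose by 1.83 (adjusted p = 0.0011) in chr4-2, 2.44 (adjusted p = 9.11e-05) in qem2 and 2.74 (adjusted p = 1.57e-05) in quintuple, and without the first chr4-2 library of 6 weeks the chr4-2 change was 1.00 (adjusted p = 0.0552).

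The same libraries were high for the other defence members. MBP1, a myrosinase-binding protein, had 797, 175 and 352 CPM in chr4-2, 825, 801 and 1099 CPM in qem2, 958, 1344 and 561 CPM in quintuple and 346, 225 and 1279 CPM in WT at 6 weeks and 78.8, 62.4 and 66.2 CPM in chr4-2, 123, 101 and 108 CPM in qem2, 91.9, 104 and 90.3 CPM in quintuple and 219, 92.5 and 118 CPM in WT at 3 weeks, and rose by 2.55, 3.02 and 3.27 (log2) in chr4-2, qem2 and quintuple. Its neighbour MBP2 rose by 2.93, 3.62 and 3.91. CORI3, a cystine lyase induced by coronatine and jasmonate, had 234, 57.8 and 76.7 CPM in chr4-2, 202.7, 126 and 170.5 CPM in qem2, 374, 792 and 111 CPM in quintuple and 149.9, 104 and 451 CPM in WT at 6 weeks and rose by 2.77, 3.18 and 4.67. AOC1, an enzyme of jasmonate synthesis, rose by 2.57, 2.93 and 3.604, with 44.5, 12.2 and 27.4 CPM in chr4-2, 62.9, 34.4 and 28.3 CPM in qem2, 34.8, 80.3 and 19.3 CPM in quintuple and 24.1, 12.4 and 47.2 CPM in WT at 6 weeks.

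THI2.1, a jasmonate-induced thionin, had 122, 3.77 and 12.2 CPM in chr4-2, 119, 94.1 and 120.1 CPM in qem2, 130.1, 216 and 15.5 CPM in quintuple and 28.9, 14.3 and 219.9 CPM in WT at 6 weeks. Its coefficient of variation over the WT libraries of that age was 131%, the largest of the 200, followed by 93.5% for MBP1 and MBP2. In chr4-2 it had 3 reads in all at 3 weeks, so that no fold change is given. It was called higher in chr4-2, qem2 and quintuple (adjusted p = 0.000157, 5.04e-05 and 1.78e-05), the chr4-2 call being lost with those 2 groups fitted alone (0.0645). The first WT library of 3 weeks held 31 THI2.1 reads and the other 2 held none.

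Some members with hormone or cell wall roles rose in all 3 mutants. TAA1, an aminotransferase of auxin synthesis, rose by 0.84, 0.81 and 0.82 (log2) in chr4-2, qem2 and quintuple. GID1B, a gibberellin receptor, rose by 1.64, 1.56 and 1.89, HAI1, a phosphatase of abscisic acid signalling, by 1.77, 2.28 and 3.01, and XTH15, a xyloglucan endotransglucosylase, by 2.46, 2.04 and 1.67. The lists these genes come from went both ways. Of 24 tested auxin genes 4 rose and 6 fell in chr4-2, 5 rose and 9 fell in qem2, and 5 rose and 11 fell in quintuple. Of 24 gibberellin genes 7 rose and 6 fell, 4 rose and 5 fell, and 7 rose and 6 fell in the same order of genotypes. Of 16 genes of cell wall expansion 1 rose in each mutant, while 8, 10 and 11 fell. Of 13 genes of cold and abscisic acid response 4 rose in each mutant, and 1, 1 and 2 fell.

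Among the most abundant members were genes with roles in lipids and cell walls. MLP28, of the major latex protein family, had 4121, 1523 and 2950.5 CPM in chr4-2, 1009, 558 and 1017 CPM in qem2, 736, 1659 and 1382 CPM in quintuple and 3723, 2754 and 5106 CPM in WT at 6 weeks and 509, 371 and 392 CPM in chr4-2, 441, 454 and 437 CPM in qem2, 484, 545 and 457 CPM in quintuple and 492, 439.7 and 460.4 CPM in WT at 3 weeks. The 6-week levels of qem2 were under those of every WT and chr4-2 library. MLP28 rose by 2.61 (adjusted p = 4.94e-07) in chr4-2, 0.93 (adjusted p = 0.0305) in qem2 and 1.29 (adjusted p = 0.00271) in quintuple, and the qem2 call was lost (adjusted p between 0.0724 and 0.124) without any 1 of the 3-week libraries or without the first or the third 6-week library. FAD2, the oleate desaturase of the endoplasmic reticulum, rose by 1.13, 0.96 and 1.13 (log2), the cell wall-plasma membrane linker protein CWLP by 1.18, 1.47 and 1.05, and FLR1, a leucine-rich repeat protein, by 1.95, 2.13 and 2.95 in chr4-2, qem2 and quintuple. The lipid-transfer-like genes AT1G62500 and AT5G55450 rose by 1.77, 1.66 and 2.18, and by 2.96, 3.04 and 3.26.

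A smaller group had lower means at 6 than at 4 weeks in qem2 and quintuple. LYK2, a LysM receptor-like kinase gene of the family that perceives chitin-type signals, had 22.7, 8.96 and 18.9 CPM in chr4-2, 0.687, 0.349 and 2.04 CPM in qem2, 0.539, 1.63 and 6.28 CPM in quintuple and 26.8, 20.6 and 25.0 CPM in WT at 6 weeks. At 3 weeks it had 1.84, 3.98 and 4.14 CPM in chr4-2, 4.55, 6.67 and 7.37 CPM in qem2, 5.72, 6.49 and 4.29 CPM in quintuple and 3.168, 3.63 and 4.11 CPM in WT. At 6 weeks every chr4-2 and WT library was above every qem2 and quintuple library, whereas at 4 weeks the means were 13.6 CPM in chr4-2, 12.5 CPM in qem2, 15.4 CPM in quintuple and 19.7 CPM in WT. LYK2 rose in chr4-2 by 2.16 (SE 0.50, adjusted p = 0.000738). In qem2 it fell, with a log2 change of -2.45 (SE 0.67, adjusted p = 0.00448), a call lost without the second 6-week library (0.0561). In quintuple the change was -1.04 (SE 0.54, adjusted p = 0.123). The chr4-2 change exceeded the quintuple change by 3.19 (SE 0.73, adjusted p = 0.0332).

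The test of that difference, chr4-2 minus quintuple, called 4 members higher and 2 lower, where 0.383% and 0.225% of all tested genes were called. WRKY12, a WRKY factor known for its effects on flowering in short days and on pith cell walls, had 32.2, 22.7 and 31.7 CPM in chr4-2, 8.25, 7.04 and 14.8 CPM in qem2, 7.61, 8.94 and 15.6 CPM in quintuple and 30.1, 18.7 and 25.5 CPM in WT at 6 weeks. At 3 weeks WRKY12 had 4.73, 5.41 and 7.34 CPM in chr4-2, 9.91, 12.0 and 9.33 CPM in qem2, 9.27, 11.2 and 9.01 CPM in quintuple and 6.16, 6.35 and 6.26 CPM in WT. Again chr4-2 and WT did not overlap with qem2 and quintuple at 6 weeks. Its log2 change was 2.16 (adjusted p = 3.72e-07) in chr4-2, -0.02 (adjusted p = 0.97) in qem2 and 0.06 (adjusted p = 0.878) in quintuple, and the difference was 2.09 (SE 0.41, adjusted p = 0.00824). AT3G19850, of the NPH3 family of phototropin partners, had 16.8, 13.5 and 12.0 CPM in chr4-2, 6.87, 4.60 and 3.172 CPM in qem2, 3.03, 3.73 and 5.65 CPM in quintuple and 17.7, 11.3 and 13.6 CPM in WT at 6 weeks, with a difference of 1.74 (SE 0.40, adjusted p = 0.0314). AT4G09760, annotated as a protein kinase superfamily gene, had 61.2, 41.0 and 55.1 CPM in chr4-2, 16.8, 14.3 and 20.6 CPM in qem2, 12.5, 13.4 and 23.6 CPM in quintuple and 56.7, 38.2 and 46.7 CPM in WT at 6 weeks, with a difference of 1.45 (SE 0.36, adjusted p = 0.044).

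These calls depended on single libraries. The WRKY12 call was lost without the first quintuple library of 6 weeks (0.054). The LYK2 call was lost (adjusted p between 0.0661 and 0.116) without any 1 of the 12 libraries except the second chr4-2 library of 6 weeks and the third quintuple libraries of 3 and of 6 weeks, and it was lost with the replicate block (0.0649) or with those groups alone (0.216). The AT4G09760 call was lost (0.0622 to 0.183) without any 1 library except the third chr4-2 library of 3 weeks, the second chr4-2 library of 6 weeks and the third quintuple library of 6 weeks, and with the block (0.0649), the groups alone (0.0941) or no count filter (0.0569). The AT3G19850 call was lost (0.0596 to 0.129) without the first or the third chr4-2 library of 3 weeks, the first chr4-2 library of 6 weeks, or the first or second quintuple library of either age. The qem2 libraries were not part of this test.

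The 2 members called lower in the same test were FD, with -0.78 (SE 0.17, adjusted p = 0.027), and AT5G01870, a lipid-transfer family gene, with -1.02 (SE 0.25, adjusted p = 0.0419). AT5G01870 had 69.1, 112 and 77.0 CPM in chr4-2 and 55.2, 63.6 and 52.1 CPM in quintuple at 6 weeks. At 3 weeks it had 86.8, 79.0 and 77.4 CPM in chr4-2 and 29.7, 26.6 and 27.7 CPM in quintuple, so that the genotypes were apart at 3 weeks and its log2 change was -0.06 in chr4-2 and 0.96 in quintuple. Its call was lost without any 1 library except the second chr4-2 and the third quintuple library of 6 weeks (0.0652 to 0.138) and with no count filter (0.0505). That of FD was lost without the first or the third chr4-2 library of 3 weeks, the third chr4-2 library of 6 weeks, the second or the third quintuple library of 3 weeks or the first or second of 6 weeks (0.0586 to 0.11), and with those groups alone (0.0629).

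Further members shared part of the profile of LYK2 without a called difference. LSH10, of the ALOG family of meristem and boundary proteins, had 717, 578 and 573 CPM in chr4-2, 283, 193 and 264 CPM in qem2, 198.2, 269 and 328 CPM in quintuple and 703, 691 and 575 CPM in WT at 6 weeks. All chr4-2 and WT libraries were above all qem2 and quintuple libraries. LSH10 rose by 1.26 (adjusted p = 5.89e-07) in chr4-2, and its log2 change was -0.16 (adjusted p = 0.52) in qem2 and 0.32 (adjusted p = 0.138) in quintuple, where it was called without the first 6-week library (0.0314). ZPR2, a small leucine zipper protein that inhibits class III homeodomain factors (chosen after its values were seen), had 16.3, 22.5 and 16.3 CPM in chr4-2, 6.53, 2.02 and 10.6 CPM in qem2, 4.51, 3.27 and 8.47 CPM in quintuple and 18.3, 12.1 and 14.9 CPM in WT at 6 weeks, with a log2 change of 1.43 (adjusted p = 0.00341) in chr4-2, -0.22 (adjusted p = 0.725) in qem2 and -0.06 (adjusted p = 0.919) in quintuple. BGLU45, a glucosidase that acts on lignin precursors (also chosen after its values were seen), had 45.4, 39.2 and 38.9 CPM in chr4-2, 15.8, 10.9 and 10.9 CPM in qem2, 11.8, 34.7 and 23.6 CPM in quintuple and 40.7, 26.3 and 31.6 CPM in WT at 6 weeks and 13.5, 29.5 and 27.0 CPM in chr4-2, 37.3, 54.7 and 33.7 CPM in qem2, 19.7, 36.4 and 51.1 CPM in quintuple and 18.1, 23.5 and 22.2 CPM in WT at 4 weeks. Unlike LYK2, BGLU45 rose in quintuple, by 2.06 (adjusted p = 7.9e-06), as well as in chr4-2, by 3.61 (adjusted p = 1.3e-09). Its change in qem2 was 0.28 (adjusted p = 0.56), and its quintuple libraries of 6 weeks overlapped those of WT.

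AT3G62270, of the bicarbonate transporter family that in plants carries borate, was the other member called lower in qem2. It had 7.21, 9.69 and 8.46 CPM at 6 weeks and 17.1, 15.4 and 14.0 CPM at 3 weeks in qem2, with a log2 change of -0.85 (SE 0.32, adjusted p = 0.0395). That call was lost without any 1 of the 6 libraries (0.0535 to 0.103) and with the replicate block (0.0575). The change was 0.90 (adjusted p = 0.0124) in chr4-2 and -0.55 (adjusted p = 0.157) in quintuple, and WT had 50.2, 34.6 and 35.3 CPM at 6 weeks. XYL4, a beta-xylosidase of the cell wall, rose by 1.08 (adjusted p = 0.00538) in chr4-2, lost without the first 6-week library (0.0957) or with those groups alone (0.0948), and by 0.80 (adjusted p = 0.0442) in qem2, where the call was lost in 5 of the 6 fits without 1 library (0.0578 to 0.155) and with no count filter (0.058), and kept without the first 3-week library. Its change was 0.59 (adjusted p = 0.13) in quintuple, where it was called with those groups alone (0.0191). The 2 members that rose in no mutant were IBH1, a bHLH protein that limits cell elongation, and AT1G08440, of the aluminium-activated malate transporter family. IBH1 had log2 changes of 0.30 (adjusted p = 0.493), -0.64 (adjusted p = 0.184) and -0.72 (adjusted p = 0.0929) in chr4-2, qem2 and quintuple, and AT1G08440 0.96 (adjusted p = 0.0665), -0.68 (adjusted p = 0.275) and 0.88 (adjusted p = 0.094). AT1G08440 was called in chr4-2 without its second 6-week library (0.0396) or with those groups alone (0.00999), and in quintuple without its first 6-week library (0.0204).

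**Figure D4:**
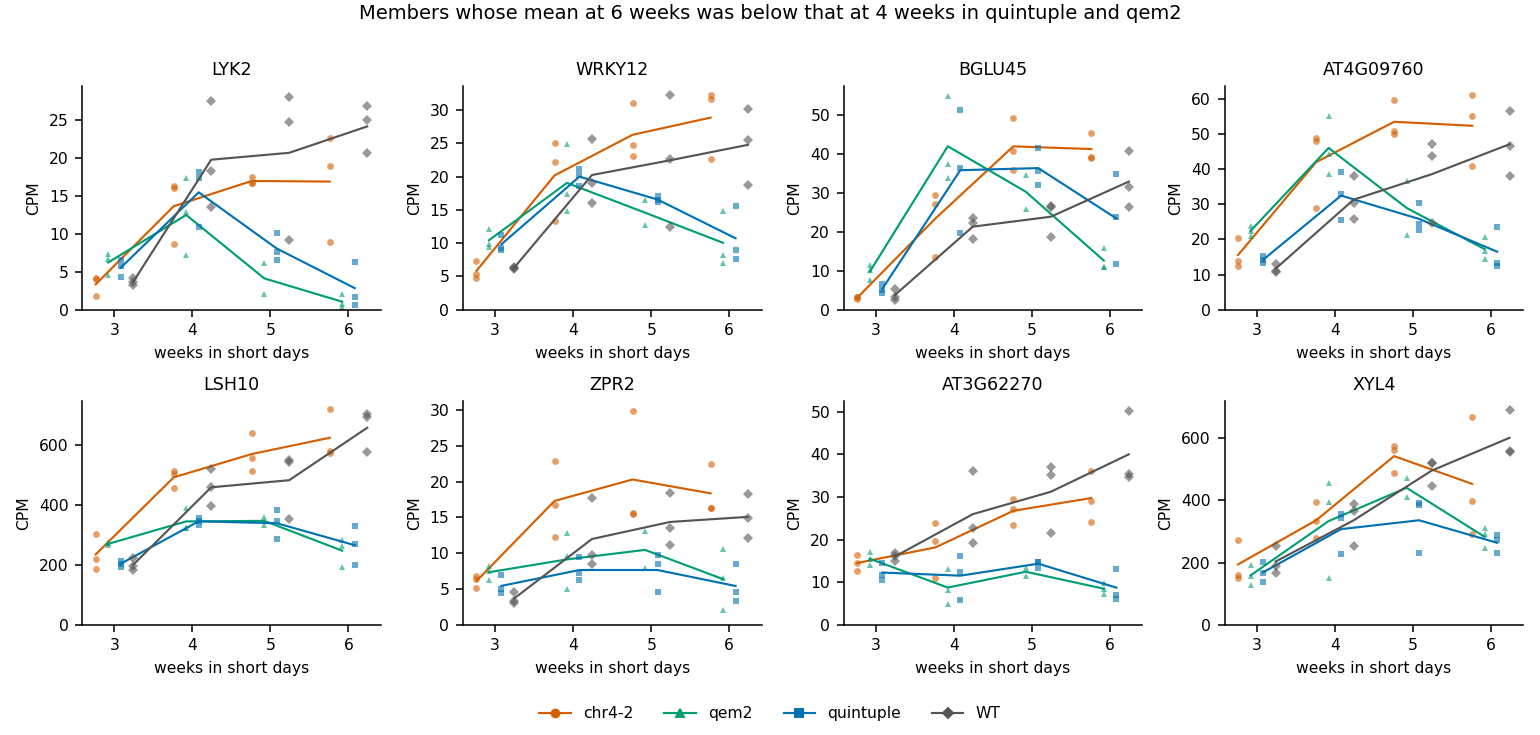
CPM per library (points) by week for 8 members whose mean at 6 weeks was below that at 4 weeks in quintuple and qem2, in chr4-2, qem2, quintuple and WT, with lines through the group means and a separate scale for each gene. For LYK2, WRKY12 and AT4G09760 all chr4-2 and WT libraries of 6 weeks lie above all qem2 and quintuple libraries.

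The comparison of qem2 with quintuple at each age asks which members differed between the qem2 line and its background. At 3 weeks 15 members were higher in qem2 and 1 was lower, beside 0.751% and 0.302% of all tested genes. At 4 weeks the counts were 8 and 2, beside 0.782% and 0.445%, at 5 weeks 6 and 2, beside 0.997% and 0.414%, and at 6 weeks 6 and 5, beside 1.83% and 1.03%. The replicate block, which the replicates of 3 and 4 weeks warranted, gave 2 lower at 3 weeks, and 13 higher and 4 lower at 4 weeks. The share of all tested genes called with that block is not given here, so these counts cannot be set beside it. At 5 weeks both pairs of replicates also deviated together, and the blocked shares of members at that age are given below. With the compared libraries fitted alone 39 members were higher and 2 lower at 3 weeks, beside 2.72% and 3.16% of the genes tested in that fit. The same fit gave 1 and 0 at 4 weeks, beside 0.0984% and 0.0437%, 6 and 2 at 5 weeks, beside 0.52% and 0.339%, and 2 and 1 at 6 weeks, beside 0.386% and 0.257%. Without the third quintuple library of 5 weeks, whose identity is uncertain, 5 members were higher and 2 lower at 5 weeks, beside 0.644% and 0.296% of the genes tested. The log2 difference was positive for 162, 149, 139 and 104 members at 3, 4, 5 and 6 weeks, or 81%, 74.5%, 69.5% and 52%, beside 50.3%, 49.2%, 50.5% and 49.2% of all tested genes, with a median of 0.27, 0.14, 0.17 and 0.01. Summed meristem markers at 3 weeks ranged from 199.1 to 231 CPM in qem2 and from 146 to 172 CPM in quintuple, and mesophyll markers from 3192 to 4052 CPM in qem2 and from 3627 to 5800 CPM in quintuple. Their part in the offset was not tested.

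AT1G10980, annotated as a transmembrane receptor family protein, showed the largest offset. At 3 weeks it had 48.9, 58.3 and 70.8 CPM in chr4-2, 86.6, 83.9 and 80.9 CPM in qem2, 10.8, 9.39 and 9.87 CPM in quintuple and 4.93, 4.35 and 5.87 CPM in WT. It had 118, 137 and 129 CPM in chr4-2, 107, 138 and 125 CPM in qem2, 42.0, 32.3 and 33.4 CPM in quintuple and 29.1, 18.24 and 31.8 CPM in WT at 6 weeks. The chr4-2 and qem2 libraries were above all quintuple and WT libraries at both ages. The log2 difference between qem2 and quintuple was 3.02 (SE 0.17, adjusted p = 1.17e-15) at 3 weeks, 2.06 at 4 weeks, 2.13 at 5 weeks and 1.78 at 6 weeks, and all 4 were called. AT1G51670, an uncharacterised gene that overlaps another on each strand, had 25.2, 21.4 and 24.0 CPM in chr4-2, 22.5, 25.3 and 25.5 CPM in qem2, 7.95, 10.6 and 10.2 CPM in quintuple and 5.81, 5.53 and 7.30 CPM in WT at 3 weeks, again with chr4-2 beside qem2 and quintuple nearer to WT. Its log2 difference between qem2 and quintuple was 1.32, 1.05, 1.11 and 0.65 at 3, 4, 5 and 6 weeks. The 4-week call was lost with those groups alone (0.139), the 5-week call without the second qem2 library (0.0521), and the 6-week call without the second qem2 library (0.243), any 1 quintuple library (0.059 to 0.142) or with the groups alone (0.182).

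AT4G34400, annotated as a B3-type transcription factor, was offset early and converged. Its 3-week libraries had 16.0, 14.0 and 14.2 CPM in chr4-2, 36.7, 41.4 and 40.7 CPM in qem2, 12.4, 17.5 and 12.0 CPM in quintuple and 5.19, 6.07 and 5.41 CPM in WT. At 6 weeks it had 118, 135 and 129 CPM in chr4-2, 125, 161 and 161 CPM in qem2, 127, 100.5 and 112 CPM in quintuple and 33.3, 30.3 and 30.0 CPM in WT. The mutants were all above WT at 6 weeks. The log2 difference of qem2 from quintuple was 1.47 (SE 0.14, adjusted p = 3.39e-09) at 3 weeks, 1.18 at 4 weeks, 0.86 at 5 weeks and 0.40 (adjusted p = 0.0781) at 6 weeks, the 4-week call being lost with those groups alone (0.051). AT1G12160, a flavin-containing monooxygenase gene, was higher in qem2 at all 4 ages, by 1.44, 1.09, 0.86 and 0.81. Its 4-week and 6-week calls were lost with those groups alone (0.248 and 0.102), and the latest also without the third qem2 (0.121) or second quintuple library (0.0621).

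Members called higher in qem2 at 6 weeks also included AT3G28500, an acidic protein of the large ribosomal subunit. It had 22.3, 30.4 and 21.9 CPM in chr4-2, 67.0, 63.2 and 113 CPM in qem2, 46.9, 26.6 and 30.1 CPM in quintuple and 5.65, 5.50 and 8.34 CPM in WT at that age, so that all mutants exceeded WT and qem2 exceeded quintuple without overlap (log2 difference 1.25, SE 0.25, adjusted p = 0.00253). The call was lost without the third qem2 library (0.109) or with those groups alone (0.274). AT1G05835 had 55.7, 52.7 and 90.8 CPM in qem2 and 40.7, 40.3 and 41.8 CPM in quintuple (log2 difference 0.72, adjusted p = 0.0189), and its call was lost without the third qem2 or any 1 quintuple library (0.0576 to 0.515), as well as with the groups alone (0.299). RPB5D, a variant subunit of RNA polymerase, had 12.5 and 17.3 CPM in qem2 and 6.19, 3.43 and 6.12 CPM in quintuple at 5 weeks (log2 difference 1.503, adjusted p = 0.00602), lost without the second qem2 (0.175) or second quintuple library (0.0801). CYP96A9, a cytochrome P450, was higher at 3 weeks (log2 difference 1.38, adjusted p = 0.0143), lost without the first qem2 (0.242), first quintuple (0.108) or second quintuple library (0.0632).

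A few members were lower in qem2. CYSD2, a cysteine synthase gene, had 2.06, 2.24 and 1.76 CPM in chr4-2, 1.37, 1.26 and 1.198 CPM in qem2, 7.21, 2.96 and 4.38 CPM in quintuple and 9.89, 9.91 and 6.85 CPM in WT at 6 weeks. It was lower in qem2 than in quintuple by a log2 difference of -1.95 (SE 0.38, adjusted p = 0.00253) at 3 weeks, -2.86 (adjusted p = 3.56e-07) at 4 weeks, -2.205 (adjusted p = 0.00022) at 5 weeks and -1.95 (adjusted p = 0.000174) at 6 weeks. The 4-week and 6-week calls were lost with those groups alone (0.0698 and 0.072) and the 5-week call without the first qem2 library (0.0523). All chr4-2 libraries of 6 weeks were also below those of quintuple and WT. AGO9, an Argonaute protein that silences transposons in ovules, had 13.5, 11.6 and 16.3 CPM in chr4-2, 5.84, 12.9 and 5.50 CPM in qem2, 22.0, 22.9 and 19.8 CPM in quintuple and 16.2, 17.5 and 13.9 CPM in WT at 6 weeks. It was lower in qem2 by -0.87 (adjusted p = 0.00698) at 4 weeks, -1.24 (adjusted p = 0.000377) at 5 weeks and -1.35 (SE 0.19, adjusted p = 1.3e-05) at 6 weeks. The 4-week call was lost without the second qem2 (0.0642) or the third quintuple library (0.0782), and the 4-week and 6-week calls with the groups alone (0.179 and 0.14).

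**Figure D5:**
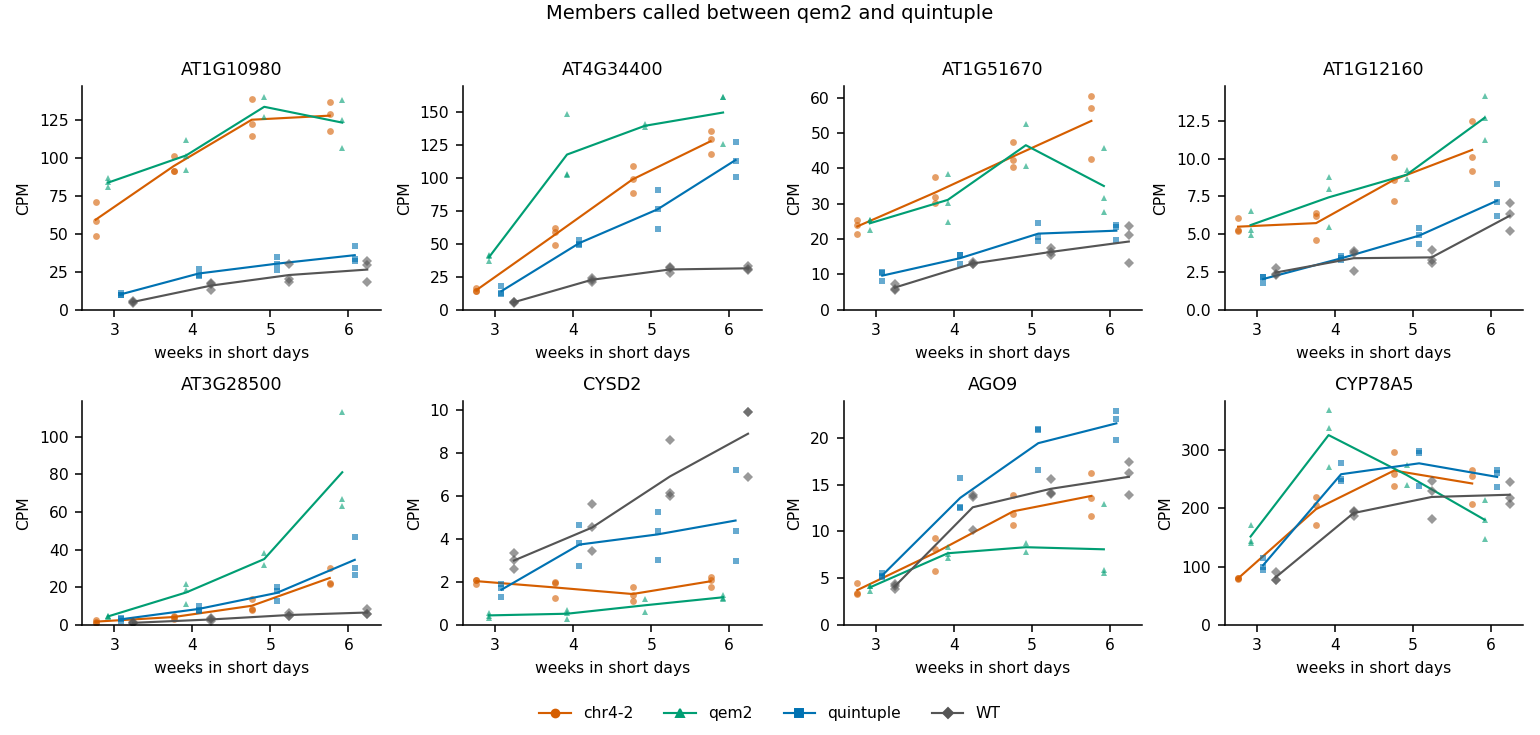
CPM per library (points) by week for 8 members called between qem2 and quintuple at 1 age or more, in chr4-2, qem2, quintuple and WT, with lines through the group means. AT1G10980 and AT1G51670 are high in chr4-2 and qem2 from 3 weeks, while CYSD2 and AGO9 have their lowest 6-week mean in qem2.

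The change with age was estimated smaller in qem2 than in quintuple for most members. The edgeR test of the difference in change, qem2 minus quintuple, called 5 members lower and none higher, beside 0.0818% and 0.0256% of all tested genes. DESeq2 called 6 lower and none higher, and its share of all tested genes is not given here. At an unadjusted p under 0.05 44 were lower, or 22%, and 0 higher, beside 3.71% and 4.63% of all tested genes. The estimate was negative for 157 members, or 78.5%, beside 50.6% of all tested genes. The 5 were AT1G10980 (log2 difference -1.24, SE 0.22, adjusted p = 0.00381), AT4G34400 (log2 difference -1.06, SE 0.19, adjusted p = 0.00359), CYP78A5 (log2 difference -1.04, SE 0.18, adjusted p = 0.00257), FD (log2 difference -0.94, SE 0.17, adjusted p = 0.00516) and ERL2 (log2 difference -0.90, SE 0.15, adjusted p = 0.00262). The FD call was lost without the third qem2 library of 6 weeks (0.0501), and those of FD, ERL2 and AT4G34400 with the compared groups alone (0.0681, 0.0954 and 0.1).

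CYP78A5 (KLUH), a cytochrome P450 that promotes organ growth from the leaf and meristem margin, crossed over between the mutants. At 3 weeks it had 144, 171 and 139.8 CPM in qem2 and 98.7, 114 and 93.9 CPM in quintuple, a log2 difference of 0.53 (adjusted p = 0.0189). At 6 weeks it had 207, 266 and 255 CPM in chr4-2, 179.7, 214 and 147 CPM in qem2, 265, 261 and 236 CPM in quintuple and 245, 218 and 207 CPM in WT, and qem2 was now below quintuple by -0.50 (SE 0.12, adjusted p = 0.0162). That 6-week call was lost without the first or the third qem2 (0.062 and 0.211) or the first or second quintuple library (0.0656 and 0.0778), and with the groups alone (0.154). CYP78A5 rose in chr4-2 by 1.47 and in quintuple by 1.26, and its change in qem2 was 0.22 (adjusted p = 0.166). ERL2, a receptor kinase of stomatal patterning and inflorescence growth, had 196, 192 and 212 CPM in chr4-2, 139.8, 179 and 115 CPM in qem2, 212, 231 and 216 CPM in quintuple and 166, 169.8 and 152 CPM in WT at 6 weeks. At 3 weeks it had 104, 129.9 and 122 CPM in qem2 and 93.3, 96.8 and 93.2 CPM in quintuple. At 6 weeks all qem2 libraries were below all quintuple libraries (log2 difference -0.61, SE 0.11, adjusted p = 0.000458, lost with the groups alone at 0.114), and its change with age was 1.24 in chr4-2, 0.26 (adjusted p = 0.0617) in qem2 and 1.16 in quintuple.

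FD stood apart between the mutants at the start: qem2 had 25.8, 31.2 and 28.2 CPM and quintuple 19.1, 16.4 and 14.3 CPM at 3 weeks (log2 difference 0.73, adjusted p = 0.000447). At 4 weeks the difference was 0.46 (adjusted p = 0.039), and at 6 weeks the mutants overlapped. AT5G01870 likewise had 67.7, 70.9 and 73.8 CPM in qem2 at 3 weeks, above quintuple by 1.30 (adjusted p = 1.56e-05). The comparisons chr4-2 minus quintuple and qem2 minus quintuple share the quintuple libraries, so that the values of FD in both are not separate evidence.

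The lists without a member, or with 1, place the 200 genes among the rest of the apex. Of 19 floral repressors 8 rose and 6 fell in chr4-2, 5 rose and 6 fell in qem2, and 6 rose and 5 fell in quintuple. Of 10 tested genes of floral meristem and organ identity 4 rose in chr4-2, 3 rose and 1 fell in qem2, and 7 rose and 1 fell in quintuple. Of 25 shoot meristem and boundary genes 12 rose and 3 fell, 6 rose and 4 fell, and 13 rose and 2 fell in the same order. Of 15 clock genes 1 rose, in qem2, and none was otherwise called. Mesophyll genes fell without exception among those called, with 13, 9 and 14 of 15 lower, and of 14 vascular genes 11, 12 and 11 fell and 1 rose, in chr4-2. Of 20 glucosinolate genes none, 2 and 3 rose and 15, 13 and 12 fell, and of 22 cuticle genes none, 2 and 2 rose and 13, 5 and 5 fell.

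In the remaining lists the counts are again given in the order chr4-2, qem2 and quintuple. Of 18 cytokinin genes 6, 3 and 3 rose and 5, 8 and 8 fell. Of 10 brassinosteroid genes 2, 1 and 3 rose and 3, 1 and 2 fell, and of 19 salicylic acid genes 5, 6 and 5 rose and 2, 1 and 1 fell. Of 5 heat shock genes 1 was called, higher in quintuple. Of 14 genes of sugar starvation and senescence 4, 2 and 3 rose and 1, 1 and 0 fell, and of 15 flavonoid genes 2, 2 and 4 rose and 7, 0 and 0 fell. Of 15 epidermis and trichome genes 2, 4 and 3 rose and 3, 1 and 1 fell, and of 16 cell cycle genes 1 rose in each mutant and 7, 0 and 4 fell. Few genes of the last lists were tested: of 7 for stamen, carpel and ovule 2, 2 and 3 rose and 1, 2 and 1 fell, of 5 for seed maturation 2, 1 and 1 rose and 1 fell in each, of 4 for root 1, 2 and 1 rose and 1, 2 and 2 fell, and of 4 mutated loci 3, 2 and 3 rose and 1, 1 and 0 fell.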

How the data were processed

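The authors deposited 1 table of raw read counts per gene, and per the submitters' processing notes TopHat2, SAMtools, HTSeq and DESeq2 were used with the TAIR10 build. Their versions, their roles and the strand setting of the counting are not given in the sources used here. CPM is the count divided by the sum of the library's column times 1000000. The third qem2 library of 5 weeks was left out as identical to a quintuple library, and the other 47 libraries in 16 groups were fitted together.

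Genes were tested with edgeR 4.0.16 (limma 3.58.1, R 4.3.3): low counts removed by filterByExpr, 19566 genes kept, TMM factors (0.874 to 1.05), glmQLFit and glmQLFTest, and Benjamini-Hochberg adjustment over all genes tested, with calls at an adjusted p under 0.05. The biological coefficient of variation was 14.7%. The script was tested on simulated data. Depth ranged from 2.91 M to 19.7 M reads (M, 1000000). Alternatives were RLE factors, no filter, DESeq2 1.42.0, the compared groups alone, a replicate block, a log2 minimum of 1, leaving out each library, members chosen on TMM-scaled CPM, and the first 100 members. Same-numbered libraries of qem2 and quintuple deviated together from their group means at 3 weeks (correlations 0.126, 0.169 and 0.252) and at 4 weeks (0.542, 0.363 and 0.539), where all exceeded 0.1. Both remaining pairs at 5 weeks did too (0.101 and 0.167), so blocked values are given as well.

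Genes named were those of largest WT increase, largest change per mutant and per qem2 comparison, smallest adjusted p in the tests of differences, highest level or spread in WT at 6 weeks, those in a list, those called in no mutant, and those at the edge of the rule. Others are said to be chosen after their values were seen. The members, gene lists and families were chosen with earlier results of these data known. Sequences come from RefSeq TAIR10.1.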

Additional observations from a re-analysis of the deposited data

Results flagged for a closer look

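The change between 3 and 6 weeks differed between 2 genotypes, by a test of the difference itself (edgeR, adjusted over all genes tested), for 11 results. In qem2 minus quintuple the log2 difference was -1.24 for AT1G10980, -1.06 for AT4G34400, -1.04 for CYP78A5, -0.94 for FD and -0.90 for ERL2. In chr4-2 minus quintuple it was 3.19 for LYK2, 2.09 for WRKY12, 1.74 for AT3G19850, 1.45 for AT4G09760, -0.78 for FD and -1.02 for AT5G01870. Both sets use the same quintuple libraries.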

How the results depend on the processing

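Counts are given as the percentage of the 200 members called. Apart from the compared groups alone, the shares of all tested genes in these settings are mostly not given. The percentages therefore describe the members only and cannot be set beside the other genes. The rises in chr4-2 and quintuple kept 94.5 to 97.5% (97.5% with all libraries) and 86.5 to 89.5% (90%) when any 1 library was left out, and those in qem2 78 to 81.5% (85%), while 55.5% passed a log2 minimum of 1 in qem2. Members lower with age were 0 to 1% in quintuple (0%) and 0 to 0.5% in qem2 (1%), with 0.5% in qem2 under the log2 minimum. For qem2 against quintuple, leaving out 1 library gave 4.5 to 6.5% higher at 3 weeks (7.5%), 2 to 5.5% higher and 0.5 to 1% lower at 4 weeks (4 and 1%), 1 to 2.5% higher and 0.5 to 1% lower at 5 weeks (3 and 1%), and 1.5 to 4.5% higher and 1.5 to 5% lower at 6 weeks (3 and 2.5%). With the compared groups alone 19.5% were higher and 1% lower at 3 weeks, 0.5 and 0% at 4 weeks, and 1 and 0.5% at 6 weeks. The log2 minimum left 4% higher at 3 weeks, 2.5 and 0.5% at 4 weeks, and 1 and 1% at 6 weeks, and among the first 100 members none was lower at 3 weeks (0%, against 0.5%). For the differences, leaving out 1 library gave 2 to 4.5% lower in qem2 minus quintuple (2.5%), and 0 to 3.5% higher and 0 to 1.5% lower in chr4-2 minus quintuple (2 and 1%), the lowest higher count without the first quintuple library of 6 weeks. The compared groups alone gave 1% lower in qem2 minus quintuple and 1% higher in chr4-2 minus quintuple, beside 0.0694% and 0.475% of the genes tested in those fits. The log2 minimum gave 1.5% lower in qem2 minus quintuple and 0.5% lower in chr4-2 minus quintuple, the first 100 members 4% higher and 2% lower in chr4-2 minus quintuple, and there no count filter gave 0.5% lower and DESeq2 2.5% lower. The cause of these moves was not tested.

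The replicate block gave 0.5% lower with age in qem2, 1% lower at 3 weeks, 6.5% higher and 2% lower at 4 weeks, 5% higher and 2% lower at 5 weeks and 5.5% lower at 6 weeks for qem2 against quintuple, and 1% higher for chr4-2 minus quintuple. At 5 weeks both remaining pairs of qem2 and quintuple libraries exceeded 0.1 (correlations 0.101 and 0.167). In the comparisons other than those of 3, 4 and 5 weeks, some pairs fell below 0.1. The shares of all tested genes called with the block are not given here.

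For the named genes no direction was reversed. Among their other settings 837 results kept their call, 31 lost it and 3 gained one, and in the fits without 1 library 994, 106 and 3. Depth limits genes under about 3.44 CPM in the shallowest library.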

Other observations

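In chr4-2, the summed level of 3 seed maturation markers was between 2.95 and 5.22 CPM at 6 weeks and between 0.394 and 0.776 CPM at 3 weeks, with 1 marker at 0. In WT it was between 0.472 and 1.36 CPM at 6 weeks and between 0.0652 and 0.352 CPM at 3 weeks. Summed levels of 2 trichome markers at 6 weeks ranged from 63.0 to 79.8 CPM in chr4-2, 111 to 126 CPM in qem2, 96.5 to 110.4 CPM in quintuple and 81.3 to 83.8 CPM in WT. Summed levels of 5 root markers were between 25.7 and 40.7 CPM over all groups, most of it from SHR (group means of 25.6 to 37.4 CPM). The group means of the other 4 root markers were at most 3.31 CPM for WOX5, 0.161 CPM for CASP1, 0.105 CPM for COBL9 and 0.0524 CPM for PLT1, with 1 or 2 of them at 0 in each group.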
